A study of Mus musculus with 4 samples.

Results

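The skin epidermis-like cells of the mouse mammary gland library of embryonic day E15.5 were 85 epithelial cells with epidermal keratins and few transcripts of the simple epithelial keratins 8 and 18. They were chosen by their own keratin and collagen counts. A cell was taken when it had at least 5000 unique molecular identifiers (UMIs, distinct transcripts counted) with at most 6% of them on mitochondrial genes, at least 10 UMIs summed over Krt5, Krt14, Krt15, Krt1 and Krt10, more than 2 times as many of these as of Col1a1, Col1a2 and Col3a1, and fewer than 5 UMIs of Krt8 and Krt18 together. The E15.5 table held 2642 cell barcodes, of which 816 passed the UMI and mitochondrial limits and 529 the keratin and collagen limits. The study kept fewer E15.5 cells under the same UMI and mitochondrial limits. Of these 529 epithelial cells, 85 had fewer than 5 Krt8 and Krt18 UMIs (16.1%, exact 95% binomial interval 13 to 19.5) and 444 had 5 or more and are called mammary cells here. That name follows from these counts alone, and no other cell type was taken out of the 444. The 85 cells were divided into 61 basal cells, with fewer than 5 UMIs of Krt1 and Krt10, and 24 suprabasal cells, with 5 or more.

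The series profiled cells of female wild-type C57B6 mice (the N substrain, per the study's methods) at birth (P0) and at 3 embryonic stages, E13.5, E14.5 and E15.5, with 1 library of 10x Genomics 3′ single-cell RNA-seq per stage, 5896 barcodes in all and 1630 kept cells. For the embryonic stages the buds and the surrounding mesenchyme of several embryos were digested with collagenase A and hyaluronidase, embryo by embryo, depleted of CD45+, CD31+ and Ter119+ cells and sorted on the epithelial protein EpCAM, with positive and negative cells both collected and pooled over embryos into 1 library per stage. In this dissection the epidermis was peeled off the mesenchyme that holds the buds, and the study set the skin cells it still found aside in its own analysis of the mammary epithelium. All groups at E15.5 shared age, genotype, dissection, sort and library, and no animal can be followed in the table. Stage and library cannot be told apart.

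The epidermis is a stratified epithelium in which a layer of basal keratinocytes divides and is held to the basement membrane by integrins and hemidesmosomes. Cells that leave this layer enter the spinous layer, replace keratins 5 and 14 by keratins 1 and 10, and later make the cross-linked proteins and lipids of the cornified barrier. In the embryo a flat outer sheet, the periderm, lies over these layers until it is shed. The mammary bud grows inward from the same ectoderm, shares keratins 5 and 14 with the epidermis and also makes the simple epithelial keratins 8 and 18.

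The levels below are UMIs of a gene summed over the cells of a group and scaled to 1000000 UMIs of those cells, called counts per 1000000 (CPM). Ranges given after a value are exact 95% intervals, and they cover counting error only. Cells of 1 library are not replicates, so no test was made and no p-value is given. A gene counted as past 2-fold when the log2 ratio, with 10 CPM added to both groups, was 1 or more in size, among genes with at least 50 UMIs over both groups and with the 10 genes of the rule left out. Basal cells had a median of 22107 UMIs and 4013 genes, suprabasal cells 31722 UMIs and 4081.5 genes, and mammary cells 24807 UMIs and 4707.5 genes. The kept cells of the library held 21559040 UMIs, of which 1370495 were from basal and 663402 from suprabasal cells.

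The keratins that chose the cells left a clear gap between the layers and none between skin epidermis-like and mammary cells. Summed Krt1 and Krt10 were 0 in 36 basal cells and 1 or 2 in the other 25, whereas the suprabasal cells had 8 to 624 (median 137.5), with no cell from 3 to 7. The limit of 5 Krt8 and Krt18 UMIs, in contrast, fell inside a continuous range. Of the basal cells, 21 had 0 of these UMIs, 18 had 1, 3 had 2, 8 had 3 and 11 had 4, and 39 mammary cells lay just above the limit, with 5 to 9. Suprabasal cells stood further off, since 18 of the 24 had none and 1 had 3, the highest value among them. The chosen keratins stood as follows. Krt1 and Krt10 were at 5.84 and 16.8 CPM in basal and 2377 and 3485 in suprabasal cells. Krt15, a keratin of basal keratinocytes, was at 722 in basal, 259 in suprabasal and 340.4 in mammary cells, and Krt14 at 2319.6, 1389.8 and 2552. Krt5 was the other way round between the layers, at 931 in basal and 1333 in suprabasal cells, 1.43-fold higher (1.31 to 1.56). The 6 suprabasal cells with 5 to 19 Krt1 and Krt10 UMIs held 543 of the 884 Krt5 UMIs, and the 14 cells with 100 or more were at 503, below the basal level. The plot of the keratin counts shows both borders.

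**Figure D1:**
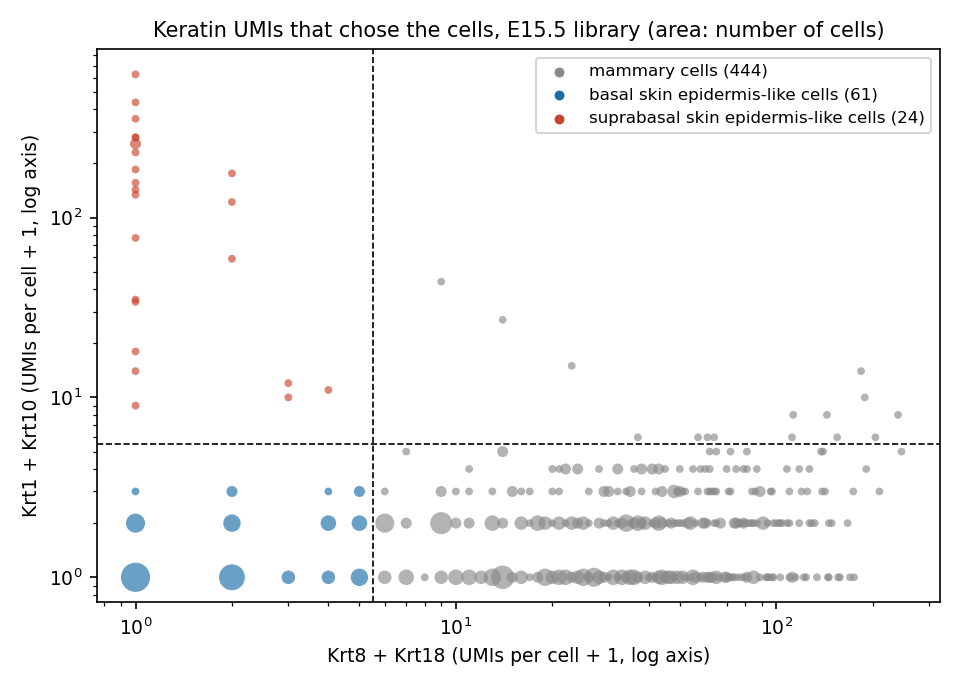
Each point is a position with 1 or more E15.5 cells, with Krt8 and Krt18 UMIs on the x axis and Krt1 and Krt10 UMIs on the y axis (both plus 1, log axes), and the area gives the number of cells there. Dashed lines are the limits of 5 UMIs. The 24 suprabasal cells stand apart from the 61 basal cells above an empty band, while basal cells meet the 444 mammary cells at the vertical line.

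The label was checked against epidermal markers that the selection did not use. Those of the upper layers were high in suprabasal cells. Sbsn, which encodes the secreted keratinocyte protein suprabasin, was at 1554 (1461 to 1652) CPM, and Calm4, which encodes an epidermal calmodulin relative, at 748 (683 to 816). Mesenchymal cells of the library, 277 cells with a median of 24103 UMIs that should lack these genes, had 9.52 and 0.426. Basal cells had 15.3 (9.49 to 23.4) for Sbsn and 5.11 (2.05 to 10.5) for Calm4, so these markers described the suprabasal cells and not the basal ones. Col17a1, the hemidesmosomal collagen XVII, was at 344 in basal cells. In the 429 mammary cells with fewer than 5 Krt1 and Krt10 UMIs it was at 93.1, so basal cells were 3.7-fold higher (3.31 to 4.12). The epidermal markers Krtdap and Ly6d went the other way between these groups, at 298 against 575 and 2.92 against 64.5. Trp63, which encodes the p63 factor of stratified epithelia, was at 120.4, 88.9 and 74.8 in basal, suprabasal and mammary cells. Itga6 was not higher in basal cells, at 179 against 196 in mammary cells, and the 22 basal cells with 2 to 4 Krt8 and Krt18 UMIs were nearer to mammary cells in Col17a1, as described with the border between these groups. The label thus held for the suprabasal cells, while the basal cells are better called by their rule, and part of them was not told apart from mammary cells.

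Merkel, melanocyte, immune, endothelial and erythroid genes were low. The 7 Merkel cell genes summed to 17.5 CPM in basal and 1.51 in suprabasal cells, the 9 melanocyte genes to 8.76 and 3.01, the 10 immune genes to 11.7 and 4.52 and the 9 endothelial and erythroid genes to 8.76 and 4.52. Of 15 periderm genes, Krt13 had no UMI in either layer and Krt4, Krt7 and Gabrp none in suprabasal cells. The whole list summed to 1551 in basal, 5974 in suprabasal and 2910.5 in mammary cells, led by Cldn4 in basal and Anxa1 in suprabasal cells, so the periderm list differed between the layers and its part in the values of the layers was not tested. Single mammary cells had a median of 2363 and a highest value of 37360 CPM for this list, and the part of periderm cells among them was not tested. Mesenchymal genes were present at a low level, with 18 genes summing to 757 in basal, 104 in suprabasal and 11205 in mesenchymal cells, and 2 of them in basal and 7 in suprabasal cells had no UMI. Sparc, which encodes a secreted matrix protein, was the most abundant of them in basal cells at 380.2, beside 371 in mammary cells, and Postn in suprabasal cells at 30.1. No skin epidermis-like cell was called a doublet by Scrublet, which called 6 of the 816 kept cells.

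The summed genes of the spinous layer were higher in suprabasal than in basal cells. Of the 16 genes of basal keratinocytes with 50 UMIs, 13 were past 2-fold lower. Across all genes, 257 of 4335 (5.93%) were past 2-fold higher in suprabasal cells and 582 (13.4%) past 2-fold lower, with a median log2 ratio of -0.19. The selection used Krt1 and Krt10 from this same contrast, so the values of the layers are a description and nothing is read from the counts. Of 25 spinous genes, 20 had 50 UMIs and all 20 were past 2-fold higher (median log2 ratio 3.56). Genes of this kind reach 50 UMIs mostly through the layer in which they are high. The other 5 were Dsc1, Lypd5, Mt4, Ptgs1 and Spink5, with at most 21 UMIs each in suprabasal cells. Summed, the spinous genes took 5115 CPM in basal, 35713 in suprabasal and 6693 in mammary cells.

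The most abundant spinous gene in suprabasal cells was Krtdap, which encodes the secreted keratinocyte differentiation-associated protein. It stood at 298 CPM in basal and 5621 in suprabasal cells, 18.8-fold higher (17 to 20.9). The lowest, median and highest counts per cell were 24, 130 and 440 in suprabasal and 0, 3 and 66 in basal cells, so every suprabasal cell had Krtdap and the groups overlapped at their edges. Its neighbours on chromosome 7 had the same order. Dmkn, which encodes dermokine, was at 190.4 and 2962, 15.6-fold higher (13.7 to 17.8), with 9, 70 and 209 UMIs in the lowest, median and highest suprabasal cell. Sbsn was at 15.3 and 1554, 101-fold higher (66 to 165), with 0, 21.5 and 252. In the GENCODE M21 annotation of GRCm38 the genes lie in a row on the forward strand, Sbsn at chr7:30751471-30756134, Dmkn at chr7:30763756-30781063 and Krtdap at chr7:30787896-30791097.

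The start regions of these neighbours, of cornified envelope genes from the epidermal differentiation complex on chromosome 3, and of Krt10 are printed as examples. Those beside Krt10 were picked among genes past 2-fold higher in suprabasal cells that hold TGANTCA, one of the motifs marked below. Their shared direction and motif thus follow from this choice, and the direction of Krt10 from the rule that set the layers. Other genes of the same direction are not printed. The sequences are from RefSeq on GRCm38.p6, 5′ to 3′ on the gene's strand, and run from 150 to 16 bases before the RefSeq start, which for Krtdap, Sprr1a and Sprr1b lies some bases from the GENCODE start. Capitals mark TGANTCA, the letters bound by AP-1 factors, and TATAAA, searched on both strands.
Sbsn (chr7:30751321-30751455, +): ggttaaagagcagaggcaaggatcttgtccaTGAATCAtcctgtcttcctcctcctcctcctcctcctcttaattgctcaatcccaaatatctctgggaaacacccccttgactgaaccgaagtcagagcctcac
Dmkn (chr7:30763606-30763740, +): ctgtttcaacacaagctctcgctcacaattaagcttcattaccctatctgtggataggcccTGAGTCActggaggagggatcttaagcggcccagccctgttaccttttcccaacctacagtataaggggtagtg
Krtdap (chr7:30787755-30787889, +): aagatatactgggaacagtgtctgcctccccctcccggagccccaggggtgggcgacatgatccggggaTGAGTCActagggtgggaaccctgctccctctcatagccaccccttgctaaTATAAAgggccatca
Lor (chr3:92083158-92083292, -): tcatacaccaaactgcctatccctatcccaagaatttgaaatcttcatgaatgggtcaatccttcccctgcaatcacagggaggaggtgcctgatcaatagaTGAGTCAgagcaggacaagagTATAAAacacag
Sprr1a (chr3:92485897-92486031, -): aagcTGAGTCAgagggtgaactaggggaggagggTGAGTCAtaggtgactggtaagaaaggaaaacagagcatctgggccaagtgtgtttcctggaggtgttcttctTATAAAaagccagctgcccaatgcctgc
Sprr1b (chr3:92438795-92438929, -): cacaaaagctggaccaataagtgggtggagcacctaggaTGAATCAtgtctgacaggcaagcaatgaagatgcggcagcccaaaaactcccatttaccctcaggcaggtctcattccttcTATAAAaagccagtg
Krt10 (chr11:99389380-99389514, -): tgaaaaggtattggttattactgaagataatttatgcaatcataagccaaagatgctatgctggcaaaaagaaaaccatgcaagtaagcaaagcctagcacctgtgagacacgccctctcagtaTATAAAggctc

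In these windows TGANTCA began 119 bases before the start of Sbsn, 89 before Dmkn, 81 before Krtdap, 48 before Lor, 111 before Sprr1b, and 146 and 116 before Sprr1a. TATAAA began 30 bases before the start of Krtdap and Sprr1b, 27 before Lor, 43 before Sprr1a and 26 before Krt10. Within 250 bases before the start, TGANTCA was held by 2113 of 27025 promoters (7.82%) and TATAAA by 3872 (14.3%). Of the 26 spinous and cornified genes past 2-fold higher in suprabasal cells, 18 had a promoter in the RefSeq table, too few for a share over the list to be read. TGANTCA was held by 8 of these 18 and TATAAA by 5. Serpinb2 and Serpinb5 held TGANTCA beside the genes printed above, and Serpinb2 held TATAAA. Of the 13 basal anchorage genes past 2-fold lower, 8 had a promoter, of which 0 held TGANTCA and 1 held TATAAA. Neither tally is read as a share. A match is a description of letters and not of binding.

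Spinous genes differed in how many suprabasal cells used them. Ly6d, which encodes a membrane-anchored protein of stratified epithelia, was at 2.92 and 895 CPM, 307-fold higher (119 to 1129.6), with a UMI in 19 of 24 suprabasal and 3 of 61 basal cells. Calm4 was at 5.11 and 748, 146-fold higher (70.5 to 366), in 18 suprabasal cells with 0, 3 and 145 UMIs in the lowest, median and highest. Krt77, a type II keratin of the suprabasal epidermis, had 1 UMI in all basal cells and 571 CPM in suprabasal cells, where 13 of 24 had it, 783-fold higher (139.7 to 31006). A typical suprabasal cell thus carried much Krtdap and little Calm4, and the levels of Calm4 and Krt77 rested on a subset. After each cell was thinned to 5000 UMIs, Krtdap was found in 100% of suprabasal cells, Ly6d in 66.7%, Calm4 in 62.5% and Krt77 in 45.8%, against 100%, 79.2%, 75% and 54.2% at full depth. In mesenchymal cells the thinned shares of Krtdap, Ly6d and Calm4 were 5.05%, 1.44% and 0.361%, which is the background of this measure.

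Several spinous genes were already present in basal cells and differed by a smaller factor. Fabp5, a fatty acid binding protein of keratinocytes, was at 369 in basal and 4953 in suprabasal cells, 13.4-fold higher (12.2 to 14.8). Lgals7, which encodes galectin-7, was at 853 and 4779.9, 5.6-fold higher (5.24 to 6.0). Sfn, which encodes the 14-3-3 sigma protein, was at 1979.6 and 4466, 2.26-fold higher (2.14 to 2.38), and was found in all 85 cells, with a log2 ratio of 0.88 after thinning. Asprv1, an aspartic protease that processes filaggrin, differed by a larger factor, at 5.11 and 972, 190.4-fold higher (91.9 to 475).

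**Figure D2:**
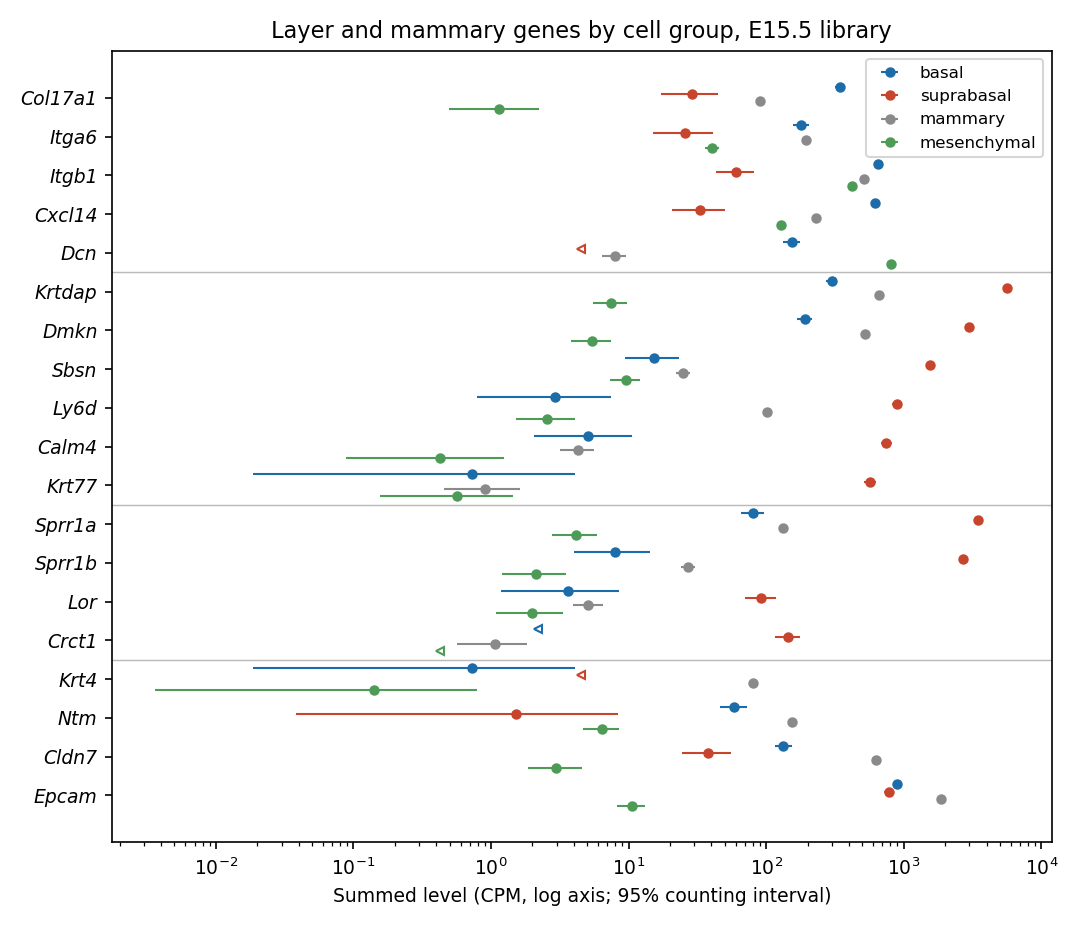
Points are summed levels (x axis, CPM, log axis) of named genes in basal, suprabasal, mammary and mesenchymal cells of the E15.5 library, and bars are exact 95% counting intervals. Open triangles mark groups with no UMI, placed at the level of 3 counts. Basal anchorage genes (top block) are lower and spinous and cornified genes (middle blocks) higher in suprabasal than in basal cells, and Krt77 stands at the mesenchymal level in basal cells.

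Among cornified envelope genes a few were abundant in suprabasal cells and 9 of 28 had no UMI there. Of 28 genes of the granular layer and cornified envelope, 6 had 50 UMIs over both layers and all 6 (Lor, Sprr1a, Sprr1b, Evpl, Ppl and Crct1) were past 2-fold higher in suprabasal cells (median log2 ratio 3.42). The sum of the 28 genes ran from 123 to 24588 CPM in single suprabasal cells, with a median of 2451. Sprr1a and Sprr1b, small proline-rich proteins that are cross-linked into the envelope, stood at 3475 and 2703 CPM in suprabasal cells, against 79.5 and 8.03 in basal cells. They were 43.7-fold higher (36 to 53.4) and 337-fold higher (188 to 676), and reads shared within this family make the value of each copy uncertain. Loricrin (Lor), a major protein of the mature envelope, was at 92 in suprabasal and 3.65 in basal cells, 25.2-fold higher (10.2 to 80.4), and was found in 11 of 24 suprabasal cells.

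Most other genes of the last steps were low or without a UMI. Flg, Lce1a1, Lce1b, Kprp, Krt2, Rptn and Sprr2a1 had no UMI in either layer, where a count of 0 allowed up to 2.19 CPM in basal and 4.52 in suprabasal cells. The transglutaminases Tgm1 and Tgm3, which cross-link the envelope, were at 67.8 and 31.7 in suprabasal cells, and Casp14, a protease of the terminal steps, at 40.7. Sprr2d, Lce3c and Cnfn were at 49.7, 33.2 and 30.1 in suprabasal cells, and involucrin (Ivl) at 7.54. Of these, only Tgm1 had a UMI in basal cells, and it had 1. Crct1, a gene of the same complex, had 95 UMIs, all in 4 suprabasal cells, and none in basal cells, and so was at least 65.4-fold higher. The small proline-rich genes Sprr1a and Sprr1b were thus most of the envelope transcripts in these cells.

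Some genes of barrier lipids were higher in suprabasal cells. Elovl4, which extends the very long fatty acids of skin ceramides, was at 7.3 and 568 CPM in basal and suprabasal cells, 77.9-fold higher (41.9 to 164). Abca12, the transporter that loads lamellar bodies, had no UMI in basal cells and 164 in suprabasal cells, at least 75.1-fold higher. Gltp, a glycolipid transfer protein, was at 21.9 and 632, 28.9-fold higher (19.9 to 43.3). Of the 22 lipid genes, 7 had 50 UMIs, and Elovl4, Abca12, Ugcg and Fabp5 were past 2-fold higher and none past 2-fold lower (median log2 ratio 1.32). Fabp5 alone made up 4953 of the 6287 CPM of the list in suprabasal cells.

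Desmosomes join keratinocytes to each other, and of 17 desmosome genes 12 had 50 UMIs, with 7 past 2-fold higher and 1 past 2-fold lower in suprabasal cells (median log2 ratio 1.76). Dsp, the desmosomal plaque protein desmoplakin, was at 425 and 1443, 3.4-fold higher (3.06 to 3.77). The desmosomal cadherins went both ways. Dsc3 was 4.78-fold higher (3.69 to 6.23) and Dsg1a was at 2.19 and 202, a value made uncertain by its close copies, while Dsg2 was 4.28-fold lower (2.69 to 7.18). Perp, a desmosomal membrane protein, was at 724 and 2728, with a UMI in all 85 cells. Of 18 tight and gap junction genes 11 had 50 UMIs, with Cldn1 and Cldn4 past 2-fold higher and Cldn7 past 2-fold lower. Cldn1, which is needed for the epidermal water barrier, was 7.45-fold higher (5.17 to 11) and Cldn4 was at 524 and 1265. The log2 ratio of Cldn4 was 0.89 with the Krt8 and Krt18 limit at 10 and 0.90 after thinning to 5000 UMIs, short of 2-fold, and that of Cldn7 was -0.30 without the basal cells with 2 to 4 Krt8 and Krt18 UMIs.

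Of 20 genes of basal keratinocytes and their anchorage, 16 had 50 UMIs, 13 of them were past 2-fold lower in suprabasal cells and none past 2-fold higher (median log2 ratio -1.94). The list also holds genes of the basal layer that are not part of the anchorage, and Cxcl14 and Dcn are among the 13. Summed, they stood at 3232 CPM in basal and 668 in suprabasal cells. Itgb1, the integrin beta 1 chain, was at 651 and 60.3, 10.8-fold lower (7.86 to 15.2). Col17a1 was at 344 and 28.6, 12-fold lower (7.61 to 20.2), with 0, 5 and 27 UMIs in the lowest, median and highest basal cell. Itga6, the integrin alpha 6 chain of hemidesmosomes, was 7.0-fold lower (4.29 to 12.2) and Dst, the hemidesmosomal plaque protein, 5.03-fold lower (3.57 to 7.29). Plec, a cytolinker of the same plaque, was nearly level at 148 and 133, and Lama3, a chain of laminin 332, was at 148 and 85.9, short of 2-fold. The difference in anchorage transcripts was thus not uniform over the plaque.

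Basal cells also carried matrix, growth factor and chemokine genes that were low in suprabasal cells. Has2, a hyaluronan synthase, was at 281 in basal cells and had 2 UMIs in suprabasal cells, 93.2-fold lower (25.6 to 772). A UMI was found in 33 of 61 basal cells and 140 of 277 mesenchymal cells, where the level was 71.9, and a basal cell had at most 49. Lmo1, which encodes a LIM-only transcriptional cofactor, was at 270.0, with a UMI in 58 basal cells, and had 2 UMIs in suprabasal cells, 89.6-fold lower (24.6 to 742). Cxcl14, a chemokine of epithelia, was 18.7-fold lower (12.3 to 30), Ptn, a heparin-binding growth factor, stood at 498 and 21.1, and Igfbp5, an insulin-like growth factor binding protein, at 229.8 and 12.1.

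Dcn, which encodes the small proteoglycan decorin and is best known from fibroblasts, had another distribution over the tissues. It was at 153 (133 to 175) CPM in basal cells, found in 44 of 61, at 0 in the 24 suprabasal cells (at least 33.9-fold lower) and at 7.89 in mammary cells. Mesenchymal cells had 805. Postn, another mesenchymal matrix gene, stood at 17.5 in basal, 11.9 in mammary and 821 in mesenchymal cells. The 18 mesenchymal genes, with Dcn among them, summed to 757 in basal and 759 in mammary cells. Sparc alone was 380.2 and 371 of these sums, so they do not show a likeness of the other mesenchymal genes. Of the 5 mesenchymal genes with 50 UMIs over both layers, Dcn, Sparc, Fn1 and Col5a1 were past 2-fold lower in suprabasal cells. The part of mesenchymal RNA in the Dcn level was not tested.

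Among signalling genes, some ligands were higher in basal and some in suprabasal cells. Wnt3 was at 119 and 12.1, 9.86-fold lower (4.89 to 23.2), and Wnt6 at 112 and 0, at least 24.7-fold lower. Wnt4 was at 107 and 84.4 and Wnt7b at 24.8 and 13.6, with intervals of the ratio that include 1. Bmp2 had 1 UMI in suprabasal cells and was at 58.4 in basal cells, 38.7-fold lower (6.75 to 1548). The epidermal growth factor receptor ligands Epgn and Hbegf were higher in suprabasal cells, at 175 and 66.4 in basal and 379.9 and 249 in suprabasal cells. The log2 ratio of Epgn was 0.61 without the basal cells with 2 to 4 Krt8 and Krt18 UMIs, and 2 further ligands of this receptor, Areg at 115 and 151 and Tgfa at 12.4 and 12.1, were short of 2-fold. Of 29 ligand and receptor genes, 15 had 50 UMIs, with 2 past 2-fold higher and 7 past 2-fold lower (median log2 ratio -0.31). The Notch pathway promotes the spinous program, and of its 14 genes 7 had 50 UMIs, with 1 past 2-fold higher and 3 past 2-fold lower. There the receptor Notch1 was 2.62-fold lower (2.07 to 3.36), Notch3 was 4.82-fold higher (2.57 to 9.5), and the ligand Jag2 had 2 UMIs in suprabasal cells against 37.9 CPM in basal cells, 12.6-fold lower (3.31 to 107).

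Of 32 epidermal factors, 20 had 50 UMIs, and 6 were past 2-fold higher and 2 (Ets1 and Id3) past 2-fold lower in suprabasal cells (median log2 ratio 0.30). After thinning Ets1 and Id3 were at log2 ratios of -0.11 and -0.84, short of 2-fold. Zfp750, a p63 target needed for terminal differentiation, was at 23.3 and 128, 5.49-fold higher (3.62 to 8.52). Grhl1, a grainyhead factor, was 4.22-fold higher (2.97 to 6.06), Cebpb 3.73-fold higher (3.1 to 4.5), Cebpa 3.57-fold higher (2.53 to 5.07) and Klf4, a factor of barrier formation, 2.07-fold higher (1.78 to 2.4). Klf4 was short of 2-fold under 3 alternatives, at a log2 ratio of 0.70 after thinning. Prdm1, a repressor of the granular layer, had no UMI in basal cells and was at 52.8 in suprabasal cells, with 35 UMIs in 9 cells. Trp63 was at 120.4 (103 to 140.2) and 88.9 (67.7 to 115), with a UMI in 49 of 61 and 17 of 24 cells, beside 4 of 277 mesenchymal cells.

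**Figure D3:**
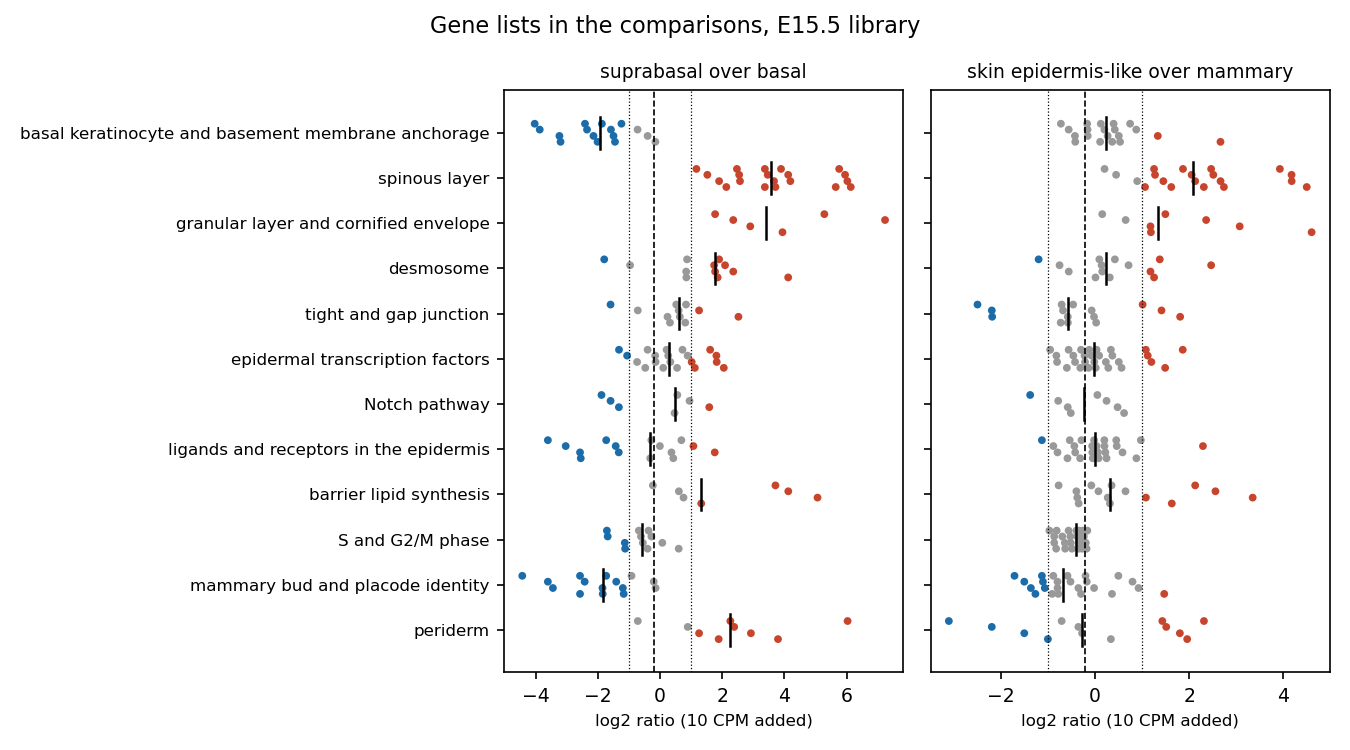
Each point is a gene with at least 50 UMIs, placed by its log2 ratio (x axis, with 10 CPM added), with gene lists on the y axis, for suprabasal over basal cells (left) and skin epidermis-like over mammary cells (right). Short black bars are list medians, the dashed line is the median of all genes tested and dotted lines are 2-fold. Spinous genes lie to the right in both panels, on the right largely through the suprabasal cells, and basal anchorage genes lie to the left only between the layers.

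A minority of cells of both layers had 2 or more UMIs of the proliferation genes Top2a and Mki67 together. These were 9 of 61 basal cells (14.8%, 6.98 to 26.2), 2 of 24 suprabasal cells (8.33%, 1.03 to 27) and 24.5% of mammary cells (20.6 to 28.8). With every cell thinned to 5000 UMIs these shares came to 8.2%, 8.33% and 13.1%. These intervals cover the counting of cells of the same library only, so neither a difference nor a likeness of the layers is read from them. The 25 genes of S and G2/M phase summed to 2038 CPM in basal, 1274 in suprabasal and 2626 in mammary cells, and 12 of them had 50 UMIs over both layers, with Mki67, Cenpe, Tubb5 and Smc2 past 2-fold lower in suprabasal cells. Mki67 was at 62 and 12.1, a log2 ratio of -1.71, but after thinning the log2 ratio was 0.02. Cenpe and Smc2 were then at -0.98 and -0.60, so only Tubb5 of the 4 stayed past 2-fold under every alternative run. Of 11 genes of cell cycle exit 8 had 50 UMIs, with 2 past 2-fold in each direction. Among these inhibitors, Cdkn1a was 2.78-fold higher (2.36 to 3.27) and Cdkn1c 3.21-fold lower (2.6 to 4.0) in suprabasal cells.

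Of 15 periderm genes 9 had 50 UMIs, with 7 past 2-fold higher in suprabasal cells, and of 11 stress and wound genes 9 had 50 UMIs, with 5 past 2-fold higher and 2 past 2-fold lower. Krt6a was at 23.3 and 243, Krt16 at 277 and 591 and Krt17 at 261 and 493, and reads shared between these similar keratins make each value uncertain. Of the Krt17 UMIs of suprabasal cells, 225 of 327 were in the 6 cells with 5 to 19 Krt1 and Krt10 UMIs, and the summed levels of the other suprabasal bins were below the basal level. Krt16 was short of 2-fold under 5 alternatives, with its lowest log2 ratio, 0.29, at up to 10% mitochondrial UMIs. Il24, a cytokine of stressed keratinocytes, was 5.91-fold lower (4.39 to 8.14) in suprabasal cells, from 419 in basal cells, where 35 of 61 had it. Lgals3, which encodes galectin-3, was at 3.65 and 882, 242-fold higher (103 to 747), and Anxa1, which encodes annexin A1, at 468 and 1755. The 20 dissociation and heat shock genes, which respond to tissue digestion, summed to 16134 in basal, 10698 in suprabasal and 19013 in mammary cells, with 4 of 20 past 2-fold lower in suprabasal than in basal cells and none past 2-fold between skin epidermis-like and mammary cells, and their part in the values above was not tested.

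Small calcium-binding proteins went both ways. Of 13 S100 genes 5 had 50 UMIs, with 3 past 2-fold higher and 1 past 2-fold lower. S100a14 and S100a16 were at 43.8 and 43.1 in basal and 418 and 384 in suprabasal cells, 9.54-fold higher (7.19 to 12.8) and 8.93-fold higher (6.7 to 12.1). S100a6 was 6.85-fold lower (3.2 to 17.5), but with up to 10% mitochondrial UMIs its log2 ratio was -0.08, and S100a11, another of the higher members, was then at 0.98. Among the calmodulin family, Calm2 was at 559.7 in basal and 199 in suprabasal cells, so it did not share the direction of Calm4.

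Suprabasal cells were not uniform, and their genes were high from different Krt1 and Krt10 counts on. The cells were placed in bins of 0, 1 to 4, 5 to 19, 20 to 99 and 100 or more Krt1 and Krt10 UMIs, of 36, 25, 6, 4 and 14 cells, so the last 3 bins rest on few cells. The bins follow counts that the selection used and differ in depth, with medians of 19658, 25954, 26266.5, 12800.5 and 34044 UMIs, so the order is a description only. Krtdap stood at 305, 290.2, 2951, 5222 and 6479 CPM and Ly6d at 2.61, 3.32, 734, 1242 and 897. Both were already high in the 6 cells of the third bin. Sbsn was high from the fourth bin on, at 14.3, 16.6, 144, 1178 and 2029.6, as were Sprr1b at 6.52, 9.95, 158, 1210.0 and 3672 and Calm4 at 6.52, 3.32, 36, 462 and 1001. Krt77 was mostly in the last bin, at 1.3, 0, 0, 95.5 and 808, and the UMIs of Crct1 in suprabasal cells all fell in the 14 cells of the last bin.

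The basal genes were lower from the third bin on. Col17a1 was at 335, 356, 93.6, 63.7 and 4.33 and Itgb1 at 641, 663, 122, 159 and 28.2. Krt5, one of the genes of the selection, was at 827, 1063, 3909, 1735 and 503, so the basal keratin was highest in the third bin. Krt17 was at 257, 267, 1619.6, 15.9 and 219, highest in the same 6 cells, and Sox11, a factor of embryonic progenitors, at 424, 398, 547, 127 and 32.5. The first and second bins differed little in these genes, and the low Krt1 and Krt10 counts of basal cells did not go with higher Krtdap or Sbsn.

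**Figure D4:**
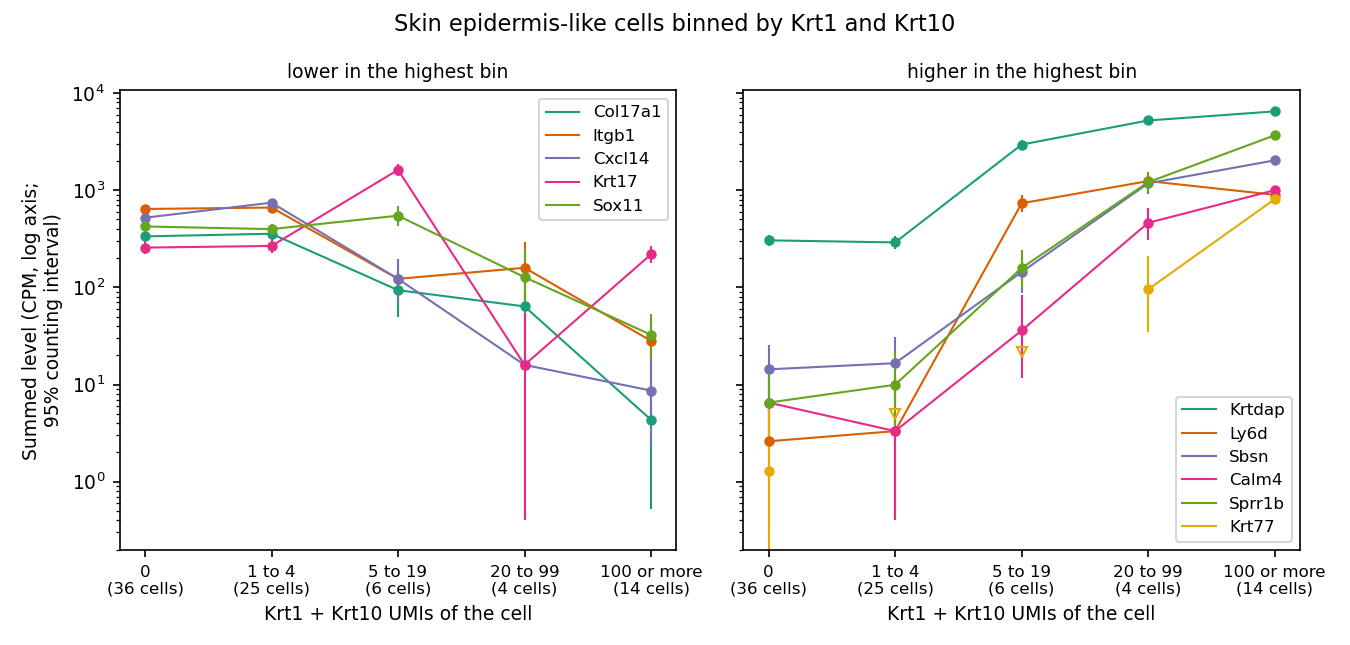
Summed levels (y axis, CPM, log axis, with exact 95% counting intervals) of genes in skin epidermis-like cells binned by the Krt1 and Krt10 UMIs of the cell (x axis, with the number of cells). Open triangles mark bins with no UMI, placed at the level of 3 counts. Krtdap and Ly6d are high from 5 UMIs on, and Krt77 only in the highest bins, while Krt17 peaks in the 6 cells of the third bin.

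Between skin epidermis-like and mammary cells of the library few of the genes tested were past 2-fold on this scale. With 10 CPM added, a gene under 10 CPM in both groups cannot pass 2-fold. With 1 CPM added 245 genes (2.49%) were higher and 912 (9.28%) lower, so no likeness is read from the shares. The selection used Krt8 and Krt18 from this contrast, so these values too are a description. Of 9828 genes with 50 UMIs, 134 (1.36%) were past 2-fold higher in the 85 cells and 176 (1.79%) past 2-fold lower, with a median log2 ratio of -0.22. Of the spinous genes, 17 of 20 were past 2-fold higher (median log2 ratio 2.09), of the 8 cornified genes with 50 UMIs 6 were (median 1.34), and of the basal anchorage genes only Col17a1 and Dcn of 20 (median 0.23). These values of all 85 cells rest largely on the 24 suprabasal cells, since the spinous list summed to 5115 in basal and 6693 in mammary cells and the cornified list to 159 and 275. With the Krt8 and Krt18 limit at 10, Dmkn, Tmem45a, Tgm1 and Evpl were short of 2-fold. Itga6 was at 179 in basal and 196 in mammary cells and Itgb1 at 651 and 512. In basal cells alone, set against mammary cells with fewer than 5 Krt1 and Krt10 UMIs, Cxcl14 was also higher, 2.58-fold higher (2.39 to 2.79), as was Itga2, 2.82-fold higher (2.03 to 3.86).

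The genes highest over mammary cells were led by stefins, inhibitors of cysteine proteases that lie in a cluster on chromosome 16. BC100530 (chr16:36359382-36367748) was at 1266 CPM in basal, 3612 in suprabasal and 43.6 in mammary cells, 46.6-fold higher (42.6 to 51.1) in all 85. Stfa3 was at 167, 1283 and 5.84, and Stfa1 at 203, 923 and 9.87. The stefins were thus present in both layers, at a higher level in suprabasal cells. The copies are nearly identical, so the division of reads among them is uncertain. Within the basal layer Stfa1 was found in 28 of 61 cells, with at most 69 UMIs.

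Connexins and other genes added to this difference. Gjb6 and Gjb2, which encode the epidermal connexins 30 and 26, were at 31 and 25.1 in skin epidermis-like and 1.73 and 3.21 in mammary cells, 17.9-fold higher (10.8 to 31) and 7.82-fold higher (5.05 to 12.2). Epgn was 5.82-fold higher (5.13 to 6.61) and Has2 7.87-fold higher (6.75 to 9.19). Ndufa4l2, a mitochondrial protein gene, was at 17.5, 558 and 7.07 in basal, suprabasal and mammary cells. Of the transcription factors, Klf4, Prdm1, Cebpa and Barx2 were among those past 2-fold higher than in mammary cells. Under at least 1 alternative Prdm1 came to 0.78, Barx2 to 0.73 and Klf4 to 0.95 on the log2 scale, short of 2-fold, and Cebpa did not. Cebpa was 5.64-fold higher (4.48 to 7.09).

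Of the 12 genes furthest below mammary cells, 3 were claudins (Cldn7, Cldn6 and Cldn3), and the others were Lgr5, Tuba1a, S100a6, Tagln, Dach2, Plcb4, Uchl1, 3830417A13Rik and Tubb2b. Cldn7 was at 102 in skin epidermis-like and 625 in mammary cells, 6.11-fold lower (5.32 to 7.04), Cldn6 was 5.5-fold lower (4.4 to 6.97) and Cldn3 7.57-fold lower (5.06 to 11.9). Lgr5, a receptor for R-spondins, was at 7.38 and 85.2, 11.6-fold lower (6.97 to 20.7). Of 28 genes of mammary bud identity, 24 had 50 UMIs, 7 were past 2-fold lower and 1 past 2-fold higher (median log2 ratio -0.69). Ntm, a neural adhesion molecule, was 3.85-fold lower (3.08 to 4.87), Sox11 2.62-fold lower (2.43 to 2.84), Epcam 2.17-fold lower (2.07 to 2.28) and Pthlh, the parathyroid hormone-related protein of the bud, 2.92-fold lower (2.06 to 4.29). With the Krt8 and Krt18 limit at 10 the log2 ratios of Pthlh, Epcam and Hes1 were -0.31, -0.90 and -0.91, short of 2-fold, and that of Pthlh was -0.59 after thinning. The exception was Sostdc1, a Wnt and BMP modulator, at 75.9 in basal and 12.8 in mammary cells. Of 12 hair placode genes 7 had 50 UMIs over skin epidermis-like and mammary cells and none was past 2-fold, while between the layers 5 had 50 UMIs and Lef1, Cdkn1c, Bmp2 and Pdgfa were past 2-fold lower in suprabasal cells. Hes1, a Notch target, was also lower than in mammary cells, at 251 and 669. Krt4 was at 80.4 in mammary cells, but in 4 cells only, so that difference rests on them.

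Basal cells near the Krt8 and Krt18 limit stood between the other basal cells and mammary cells in several genes named above. Such genes were not counted over all genes. The 39 basal cells with 0 or 1 of these UMIs, the 22 with 2 to 4 and the 38 mammary cells with 5 to 9 and few Krt1 and Krt10 UMIs are compared in that order. Col17a1 was at 419, 199 and 136 CPM, Dcn at 181, 99.3 and 3.77 and Stfa1 at 290.0, 32.4 and 15.1. Ntm was at 15.4, 142 and 156, Cldn7 at 48.5, 299.9 and 413 and Sox11 at 326, 580.4 and 684. In Col17a1, Stfa1, Ntm, Cldn7 and Sox11 the 22 cells stood nearer to the mammary cells, and in Dcn nearer to the other basal cells. Epgn was at 246, 36.7 and 17.6, Has2 at 359, 127 and 54, Serpinb2 at 348, 82 and 92.9 and Anxa1 at 627, 155 and 156, so these genes too were highest in the 39 cells. In Serpinb2 and Anxa1 the 22 cells were not above the mammary cells and so not between. The median depths were 22236, 21004.5 and 21120 UMIs.

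Spinous transcripts were not confined to cells below the Krt8 and Krt18 limit. Among mammary cells, 15 had 5 to 43 Krt1 and Krt10 UMIs (median 7), with a median depth of 38502 UMIs against 24660 in the other 429. Ly6d was at 754 in these 15 and 64.5 in the other mammary cells, 11.7-fold higher (10.4 to 13.1), and Krtdap at 2109.9 and 575, 3.67-fold higher (3.46 to 3.89). Sbsn was at 81.6 and Calm4 at 7.69, far below the 1554 and 748 of suprabasal cells. In the third Krt1 and Krt10 bin of skin epidermis-like cells Ly6d was at 734 and Calm4 at 36. The 15 cells thus had Ly6d near the level of that bin and little Calm4. In all mammary cells Krtdap was at 657, above the 298 of basal cells.

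The same selection was applied to the other libraries. It found 37 cells of 95 epithelial cells in the E13.5 library (38.9%, 29.1 to 49.5), 22 of 44 in that of E14.5 (50%, 34.6 to 65.4) and 1 of 73 at P0 (1.37%, 0.0347 to 7.4), against 85 of 529 at E15.5. Of these, 3 were suprabasal in each of the E13.5 and E14.5 libraries and none at P0. The E15.5 table names another Cell Ranger version than the others in its header, so stage, library and processing cannot be told apart in the values that follow. The keratin limits were set for E15.5 and were not checked against cell types at the other stages. Levels follow in the order of age, E13.5 first and E15.5 last.

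The spinous list summed to 2268, 1989 and 5115 CPM in basal cells, so part of it was present at the earlier stages, but Krtdap and Dmkn were nearly absent there. Krtdap was at 5.42, 2.23 and 298 CPM, Dmkn at 2.71, 2.23 and 190.4 and Lgals7 at 157, 163 and 853. Krt16 was at 2.71, 6.68 and 277, Il24 at 1.36, 0 and 419, Has2 at 0, 2.23 and 281 and Stfa1 at 5.42, 0 and 203, so these 4 genes were at or near 0 at the earlier stages. Col17a1 was at 133, 187 and 344 and Itgb1 at 263, 218 and 651. Other genes were lower at E15.5. Cxcl14 was at 1921, 1254 and 619, Gjb2 at 193, 40.1 and 19.7, Hes1 at 658, 862 and 222 and Top2a at 346, 125 and 66.4. The basal anchorage list summed to 3379, 2924 and 3232, which includes the Cxcl14 values just given, so the sum hides that Cxcl14 was lower and Col17a1 and Itgb1 were higher at E15.5. The stress list was at 209, 138 and 1625 and the dissociation and heat shock list at 8233, 13099 and 16134.

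The 3 suprabasal cells of each earlier library were 3.16% (0.656 to 8.95) of the epithelial cells at E13.5 and 6.82% (1.43 to 18.7) at E14.5. At E15.5 the share was 4.54% (2.93 to 6.68). These are cells of 1 library per stage, so neither a likeness nor a difference of the stages is read from the intervals. The values of so few cells are only given side by side. Krtdap was at 0, 1917 and 5621, Fabp5 at 172, 4572 and 4953 and Dmkn at 0, 256 and 2962. The spinous list summed to 2474, 9950.3 and 35713 and the cornified list to 50.7, 194 and 6994. Calm4 was at 0, 0 and 748 and Lor at 0, 15.52 and 92. The 3 E13.5 cells kept a basal anchorage sum of 4016, against 1071 and 668 at the later stages, and their spinous sum was close to the 2268 of E13.5 basal cells.

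**Figure D5:**
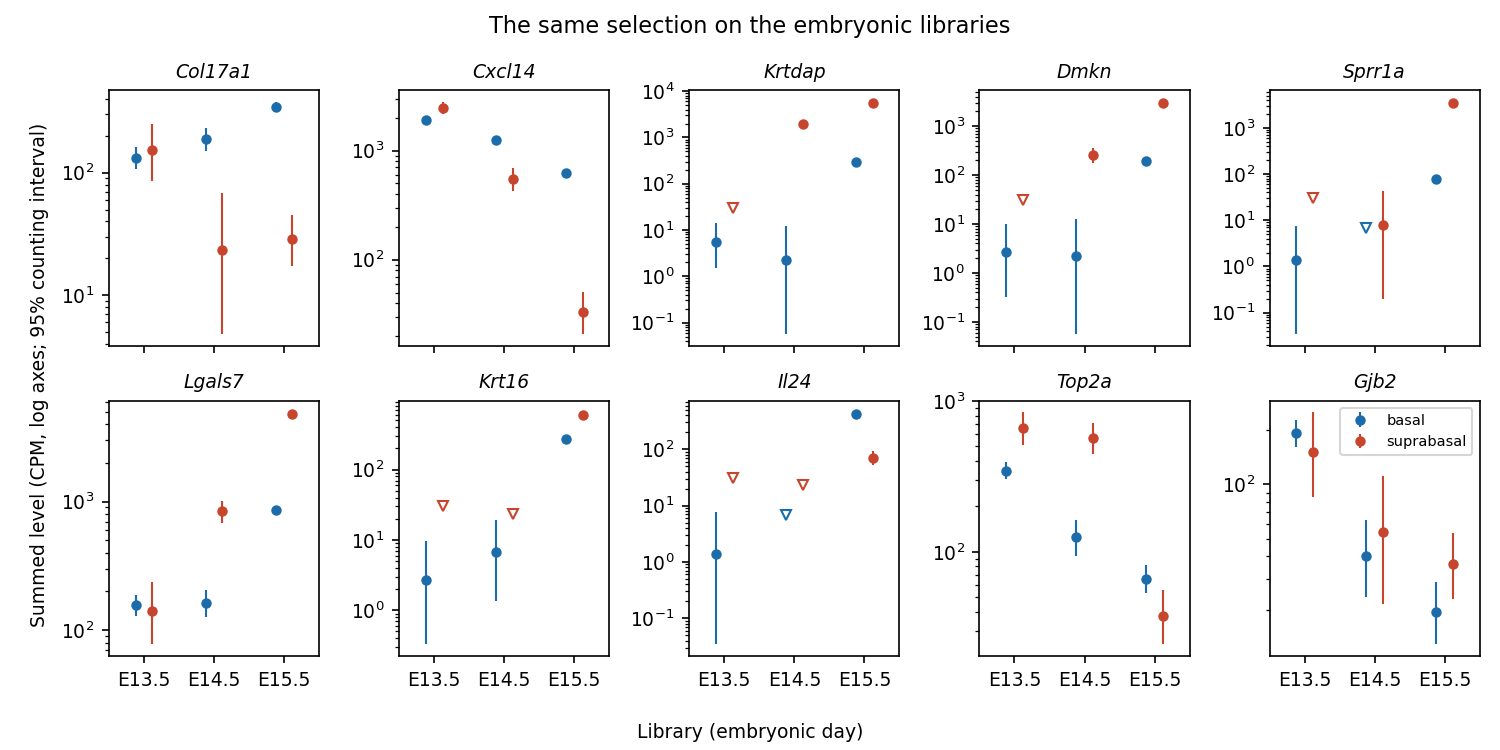
Summed levels (y axes, CPM, log axes, with exact 95% counting intervals) of 10 genes in basal and suprabasal cells found by the same selection in the libraries of the 3 embryonic stages (x axis). Open triangles mark groups with no UMI, placed at the level of 3 counts. Krtdap, Dmkn, Krt16 and Il24 are near 0 in basal cells before E15.5, and Cxcl14, Top2a and Gjb2 are higher there before E15.5, with 3 suprabasal cells at each earlier stage.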

How the data were processed

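Single-cell RNA was measured with 10x Genomics 3′ libraries, 1 per stage. The deposited files hold raw UMI counts per gene and cell barcode, which the authors made with Cell Ranger and a pre-built mm10 reference. The submitters' processing notes name Cell Ranger 6.0.0, and the file headers name 3.1.0 for E15.5 and 6.0.0 for the other stages. The E15.5 table listed 31053 genes and the others 32285, of which 30406 were matched by Ensembl ID. The kept cells held 21559040 UMIs in the E15.5 library, 4506046 in that of E13.5, 2111282 in that of E14.5 and 5122125 in that of P0. Sharing of barcodes was counted, and E15.5 had 1 barcode in common with E13.5 and 1 with E14.5, none of them among kept cells.

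Cells were selected by the limits given with the results, and mesenchymal cells were those with at least 10 UMIs of Col1a1, Col1a2 and Col3a1, more than 2 times as many of these as of the 5 keratins, and fewer than 5 UMIs of Krt8 and Krt18. The members and gene lists were chosen with earlier results of these data known. Counts were summed per group and expressed as CPM. Levels have exact Poisson intervals, and shares and ratios exact binomial (Clopper-Pearson) intervals, the ratios conditional on the sum of both counts. Where a group had no UMI, the fold is a bound against 3 counts over the group. Cells of 1 library share their animals and reaction, so no p-value was computed. The genes named were those of the gene lists and, for each comparison, the 12 with the largest log2 ratio in each direction. These 12 were taken among genes with at least 50 UMIs and a UMI in at least 25% of the cells of the higher group. Mitochondrial genes and the 10 genes of the rule were left out of them. Thinning drew 5000 UMIs per cell without replacement (seed 1). Doublets were called with Scrublet in scanpy 1.11.5 and kept, and the calls were also used as an alternative. Other work used Python 3.11.15, numpy 2.4.6, scipy 1.17.1, pandas 2.3.3 and matplotlib 3.10.9. The scripts were tested on simulated data. Alternatives changed the cell limits, the summing, the depth, the added constant and the UMI minimum. Some genes of the lists are not reported here.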

Additional observations from a re-analysis of the deposited data

How the results depend on the processing

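The number of skin epidermis-like cells was 85 and became 152 with up to 10% mitochondrial UMIs. Against mammary cells 134 genes were past 2-fold higher and 176 lower. With cells thinned to 5000 UMIs the higher genes were 73 of 5486 tested (1.33%, against 1.36% of 9828). The lower genes were then 235 (4.28%, against 1.79%). With 1 CPM added in place of 10 the higher genes were 245 and the lower genes 912. The lower genes were 319 with the Krt8 and Krt18 limit at 3 UMIs and 39 with it at 10. Between the layers 257 genes were past 2-fold higher in suprabasal cells and 582 lower. These were 74 and 140 after thinning, where fewer genes reached 50 UMIs, and 461 and 964 without that minimum, where more genes were tested. Leaving out the basal cells with 2 to 4 Krt8 and Krt18 UMIs, an alternative chosen after seeing the data, gave 375 lower genes. The other causes were not tested. The log2 ratio of Mki67, suprabasal over basal, was -1.71 and came to 0.018 after thinning. The other log2 ratios of named genes were counted once per gene and alternative. Against mammary cells 421 of these values moved past their counting interval and 2549 stayed within it. Between the layers 291 moved and 2588 stayed, and none that was past 2-fold changed sign in either comparison. Of 200 named values past 2-fold, 24 came under 2-fold with the Krt8 and Krt18 limit at 10 and 21 after thinning, and at most 10 under each other alternative. No paired analysis was possible because each stage has 1 library. The suprabasal cells held 663402 UMIs, so a gene without a UMI there may still be at up to 4.52 CPM, and the spread between animals is unknown.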
